A study of Mus musculus with 6 samples.

Results

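The 45 genes described here make the machinery that builds ribosomes: RNA polymerase I with its initiation factors, the core proteins of small nucleolar ribonucleoproteins (snoRNPs), and the nucleolar factors that process ribosomal RNA and assemble the small and large subunits. They were taken by symbol from a table of 24062 gene symbols, and all 45 are listed and passed the filter on low counts. The libraries are messenger RNA of Kit-positive bone marrow cells of C57BL/6 mice, a sort rich in blood progenitors that the series description calls lineage-negative, 1 mouse per library. WT stands for 3 wild-type littermates (WT_341, WT_343 and WT_344) and KO for 3 mice with floxed Ints11 alleles and Mx1-Cre (KO_339, KO_340 and KO_345). Ints11 encodes the endonuclease of Integrator, a complex that cleaves nascent RNA. Mx1-Cre is driven by an interferon-responsive promoter that is not specific to blood cells and is switched on with poly(I:C). The labels give 4 days after poly(I:C) as the time of sorting for both genotypes, and they do not say whether the WT mice carried Mx1-Cre. The comparison asks which messenger RNAs differ between the genotypes.

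As background, RNA polymerase I transcribes the ribosomal RNA precursor in the nucleolus. Box C/D snoRNPs methylate and box H/ACA snoRNPs pseudouridylate that precursor at sites set by their guide RNAs, and many assembly factors then cut, fold and export the subunits. Proliferating progenitors make ribosomes at a high rate, and inherited defects of the pathway are known for marrow failure.

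Genes of this pathway also carry guide RNAs in their introns. In the GENCODE M21 annotation, 7 of the 45 genes enclose 21 annotated snoRNA genes on their own strand, namely Nop56, Nop58, Dkc1, Ncl, Gnl3, Wdr43 and Tsr1. Some of the 21 lie inside an annotated exon of the host, such as Snord57 in Nop56, Snora75 in Ncl and Snord69 in Gnl3. These libraries measure messenger RNA, so the guides themselves were not measured. The sequences below show 3 of them, picked after the candidates were seen because each lies outside its host's annotated exons and has box C near its 5′ end and box D near its 3′ end. Capitals mark box C (searched as TGATGA) and box D (CTGA), where the products of Fbl, Nop56 and Nop58 assemble.
Snord110 in Nop56 (chromosome 2, 130275506 to 130275573, forward strand): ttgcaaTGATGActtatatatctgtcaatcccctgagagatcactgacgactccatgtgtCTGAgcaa
Snord11 in Nop58 (chromosome 1, 59704790 to 59704873, forward strand): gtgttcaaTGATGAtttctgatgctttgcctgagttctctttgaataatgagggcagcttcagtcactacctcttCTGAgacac
Snord82 in Ncl (chromosome 1, 86356261 to 86356330, reverse strand): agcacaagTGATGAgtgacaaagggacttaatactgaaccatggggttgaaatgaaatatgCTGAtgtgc
The protein genes that host them, Nop56 and Ncl, fell in KO libraries, while Nop58 did not pass the test.

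Ints11, listed as Cpsf3l, was measured at 73.8, 92.3 and 78.9 CPM in WT_341, WT_343 and WT_344 and at 64.3, 58.3 and 60.2 CPM in KO_339, KO_340 and KO_345 (CPM are counts scaled to a common library total, here the TMM-adjusted one). Every KO library lay below every WT library (log2 change -0.42 ± 0.10 (SE), adjusted p = 0.0174, from the quasi-likelihood test of edgeR, Benjamini-Hochberg adjusted). Its call was lost when KO_340 was left out (log2 change -0.36, edgeR adjusted p = 0.0557) and when KO_345 was left out (-0.38, edgeR adjusted p = 0.0541). With the neutrophil marker level as a covariate the log2 change was -0.21 (edgeR adjusted p = 0.255), and the 14 alternatives ran from 0.00171 to 0.255. Reads of exons outside the floxed part also count for the gene, and the extent of deletion was not measured here. Kit itself was at 199 to 221 CPM in WT and 220.3 to 238 CPM in KO libraries. Library totals ran from 124074531 to 166860739 counts. The total of all counts assigned to the 45 genes was between 624605 and 1411515 per library, and pairs of libraries of 1 genotype differed by more than counting error (chi-square per degree of freedom of 51.3 or more). The libraries also differed in markers of mature neutrophils. The summed level of 11 mature neutrophil markers was 35392, 11116 and 20719.6 CPM in WT_341, WT_343 and WT_344 and 56028, 42961 and 42615 CPM in KO_339, KO_340 and KO_345, and 4 of the 11 rose. The counts of Xist and Y-linked genes show males for WT_341, KO_339 and KO_340 and females for the other 3 mice.

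Most of these messenger RNAs for ribosome building were lower in KO libraries. Of the 45 genes 30 fell (66.7%) and 0 rose (edgeR, threshold 0.05 on the adjusted p), against 19.9% of all 15742 tested genes lower and 16% higher. At an unadjusted p of 0.05 the counts were 35 lower and 0 higher, against 25.5% of all tested genes lower and 22.7% higher (42.2% and 12.6% of those of similar level). DESeq2 and limma-voom also called 0 higher, with 35 lower (21% of all genes it tested) and 28 lower (19.5%). In the edgeR fit of all 6 libraries (TMM, default filter, no covariate) the log2 change was below 0 for all 45. It ran from -1.05 (Ftsj3) to -0.00083 (Polr1e), with a median of -0.54 against 0.01 for all tested genes. Polr1e was above 0 in 9 of the 14 alternatives, among them upper-quartile factors (0.14) and plain library totals (0.10). With the neutrophil marker level as a covariate, 16 of the 45 were above 0. The 45 genes are strongly expressed (means of 21.02 to 979 CPM). Among the 7142 tested genes within that range of levels, 34% were called lower and 8.98% higher, with a median of -0.16. These are the genes of similar level in this text, taken by range only and not matched gene by gene. The groups did not overlap, with KO below WT, for 31 of the 45 genes, against 28.4% of all tested genes and 46% of those of similar level. With KO above WT they did not overlap for 0 of the 45, against 25.6% of all tested genes. The summed level of the 45 genes was 5919, 8931 and 7179 CPM in WT_341, WT_343 and WT_344 and 4636, 4739 and 5195 CPM in KO_339, KO_340 and KO_345, so each KO sum was below each WT sum. In bulk RNA, fewer cells that express a gene and less of its RNA per cell cannot be told apart.

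**Figure D1:**
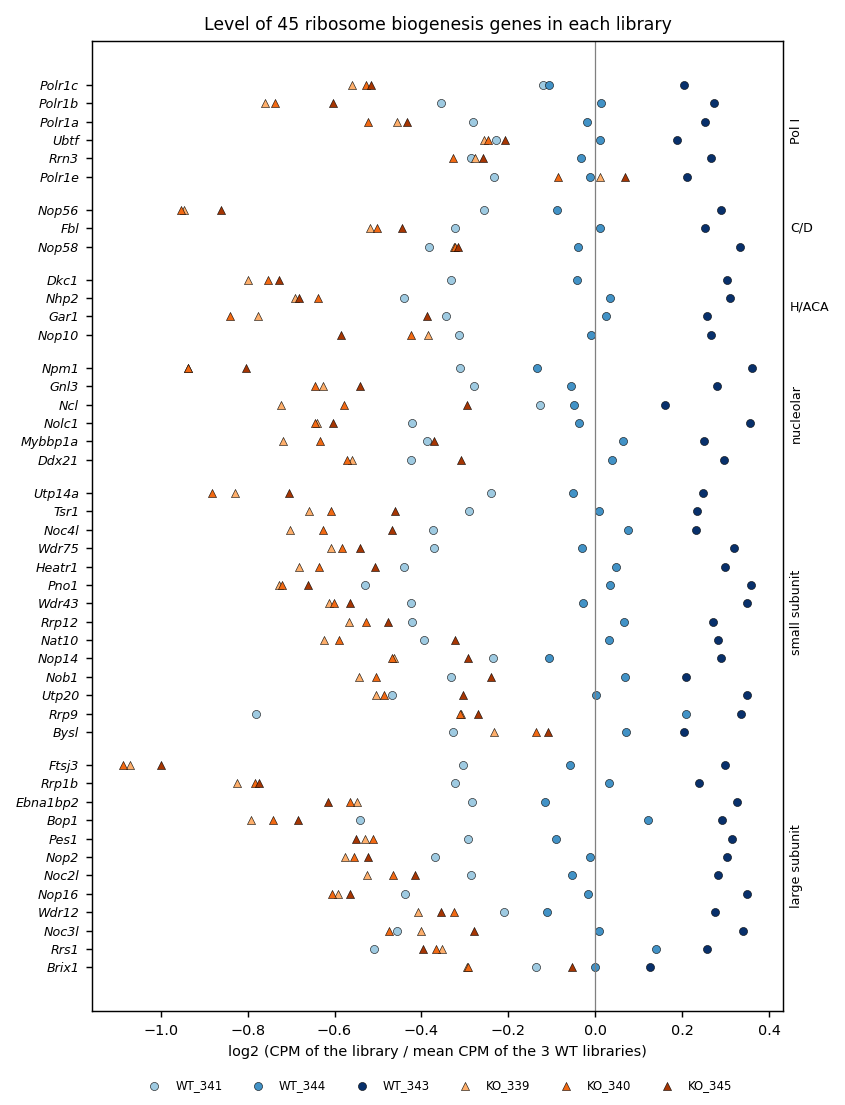
Level of each of the 45 genes in each library, as log2 of the library's CPM over the mean of the 3 WT libraries; circles are WT and triangles KO libraries, and genes are grouped by role. WT_341 is the lowest, WT_344 the middle and WT_343 the highest WT circle in all 45 rows, and KO triangles lie left of all WT circles in 31 rows.

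The WT mice differed among themselves in a fixed order. WT_341 had the lowest, WT_344 the middle and WT_343 the highest WT level for 45 of 45 genes, an order found in 31.9% of all tested genes and in 42.6% of tested genes of similar level. The median coefficient of variation of the 45 genes was 21.3% among WT libraries, against 9.98% for tested genes of similar level. Among KO libraries it was 3.59%, against 4.67%. The 3 KO libraries were thus close to each other, and the distance from KO to WT depended on the WT mouse: the KO mean was a median of 0.572 times the level in WT_343, 0.689 times that in WT_344 and 0.883 times that in WT_341. WT_341 was above every KO library for 31 genes, WT_343 for 45 and WT_344 for 44. By sex, WT_341 was the only male of the WT mice and KO_345 the only female of the KO mice. KO_345 was the highest KO library for 39 of the 45 genes, and the part of sex in these orders was not tested. Library totals in WT had the same order as these genes, with 124074531 counts in WT_341, 151923916 in WT_344 and 166860739 in WT_343, and the part of depth was not tested. The neutrophil markers had the reverse order in WT, highest in WT_341 and lowest in WT_343. Over all 6 libraries, the order of the summed level of the 45 genes was the reverse of the order of the neutrophil marker sum, in which KO_340 and KO_345 lie close together (42961 and 42615 CPM). Without S100a9, the most abundant marker, these 2 libraries change places (30022 and 30478 CPM) and every KO sum is still above every WT sum.

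**Figure D2:**
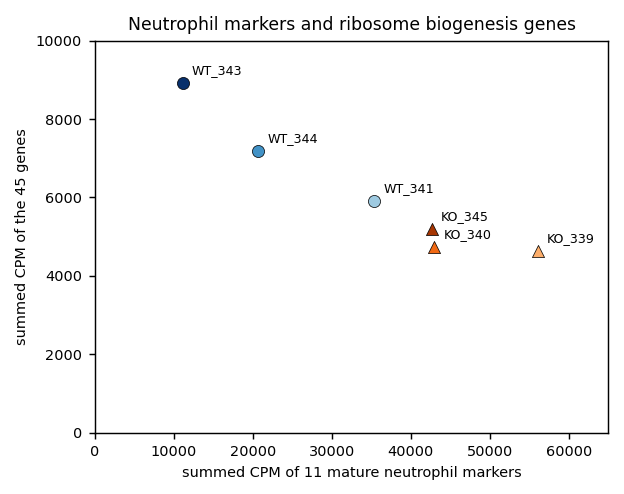
Summed CPM of 11 mature neutrophil markers (horizontal axis) and of the 45 ribosome biogenesis genes (vertical axis), 1 point per library; circles are WT and triangles KO. WT_343 has the lowest marker sum (11116 CPM) and the highest sum of the 45 genes (8931 CPM), and KO_339 has the highest marker sum (56028 CPM) and the lowest sum of the 45 genes (4636 CPM).

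The neutrophil level and the genotype overlap in this design, since every KO library had a higher marker sum than every WT library, and their parts in the difference cannot be told apart. With the mean log2 level of the neutrophil markers added to the fit, 3 of the 45 genes were lower and 0 higher (4.83% and 2.9% of all tested genes), and the median log2 change of the 45 went from -0.54 to -0.046. The 3 were Ftsj3 (-0.60, adjusted p = 0.0179), Nop56 (-0.51, adjusted p = 0.0268) and Rrp1b (-0.37, adjusted p = 0.0469, all from edgeR). In that fit 29 of the 45 values were below 0 and 16 above 0. Progenitor markers moved in both directions: of 10, Mpo (log2 change -1.17) and Elane (-0.61) fell and Cd34 (0.38) and Gata2 (1.41) rose, and the summed level of the list was 13704 to 17809 CPM in WT and 7666 to 9010 CPM in KO libraries. That sum is mostly Mpo and Elane, and the other 8 progenitor markers summed to 1266 to 1395 CPM in WT and 1239.6 to 1405 CPM in KO libraries, which overlap. Markers of megakaryocytes (4 of 7 higher, summed 43.8 to 64.9 CPM in WT and 98.9 to 147.05 CPM in KO) and of mast cells and basophils (5 of 6 higher, 157 to 203 CPM and 239 to 339.8 CPM) had higher sums in every KO library. Of 7 erythroid markers 1 fell, Tfrc, which carried the sum of the list (322 to 411 CPM in WT and 243 to 251 CPM in KO). The other 6 summed to 22.4 to 85.99 CPM in WT and 26.1 to 32.1 CPM in KO libraries, which overlap. Of 9 T and NK cell markers Nkg7 fell and 2 rose (Cd3g and Ncr1), and Nkg7 carried the sum of the list (277 to 301 CPM and 208 to 232 CPM). The other 8 had log2 changes above 0 and summed to 9.07 to 16.5 CPM in WT and 16.6 to 27.02 CPM in KO libraries. The sums of B cell markers (0 of 8 called, 26.01 to 94.4 CPM and 53.9 to 92.02 CPM), macrophage markers (1 of 9 higher, 326 to 553 CPM and 451 to 682 CPM) and markers of stroma and endothelium (2 of 8 higher, 84.3 to 102 CPM and 97.4 to 179 CPM) overlapped between the genotypes. In WT libraries the sum of the stroma and endothelium list was mostly Pecam1 (log2 change -0.0099). The other 7 had log2 changes above 0, and the 2 that rose were Col1a1 (3.34) and Col1a2 (2.06). These 7 summed to 18.1 to 34.3 CPM in WT and 31.9 to 112 CPM in KO libraries, which overlap. Without Cxcl12 as well, the sums of 9.29 to 19.9 CPM in WT and 22.3 to 80.5 CPM in KO did not overlap. No marker of the 9 cell type lists was at 0 in all libraries. The part of these other cell types in the difference was not tested.

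Many of the calls changed when a single library was left out, which left 2 mice in 1 group. Without KO_339, calls over all genes went from 5659 to 2302 and the median log2 change of the 45 from -0.54 to -0.49. Without WT_341, the WT library nearest to the KO level, 44 of the 45 genes were lower (26.6% of all tested genes), with Polr1e as the exception. There were 18 lower without WT_343 (15.1%), 10 without WT_344 (11.5%), 7 without KO_339 (7.95%), 9 without KO_340 (10.4%) and 14 without KO_345 (10.3%). None of the 45 was called higher in these 6 fits, where the shares of all tested genes called higher were 22.1% without WT_341, 10.7% without WT_343, 8.92% without WT_344, 6.54% without KO_339, 10.3% without KO_340 and 8.27% without KO_345. The 7 genes that were lower in each of these 6 fits were Ftsj3, Nop56, Rrp1b, Utp14a, Npm1, Dkc1 and Polr1c. The other 23 calls were lost without KO_339, where their log2 changes were -0.67 to -0.39 and their adjusted p-values 0.0537 to 0.125. Scaling mattered as well. Upper-quartile factors put the median of all tested genes at 0.15 and left 15 of the 45 lower (12.3% of all tested genes), while library totals only put it at 0.11 and left 24 lower (14.1%). Set against the median of all tested genes, the median of the 45 genes was -0.55 for TMM, -0.54 for upper-quartile factors and -0.55 for totals. Over all tested genes, 2520 calls were higher and 3139 lower under TMM. Upper-quartile factors gave 3458 higher and 1931 lower, and totals gave 3151 higher and 2212 lower. Within the males, both KO libraries were below WT_341 for 38 of 45 genes, with a median log2 ratio of -0.21, and within the females KO_345 was below both WT libraries for 44 of 45, with a median of -0.60. The same shares of all tested genes were 42.9% and 43.8%, with medians of 0.019 and 0.014. Tested genes of similar level had shares of 58.5% and 65.2%, with medians of -0.096 and -0.20. A fit with sex as a covariate left 22 lower (17.3% of all tested genes), asking for 1 CPM or more in 3 libraries left 25 (19.7%) and no filter gave 34 (16.7%).

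**Figure D3:**
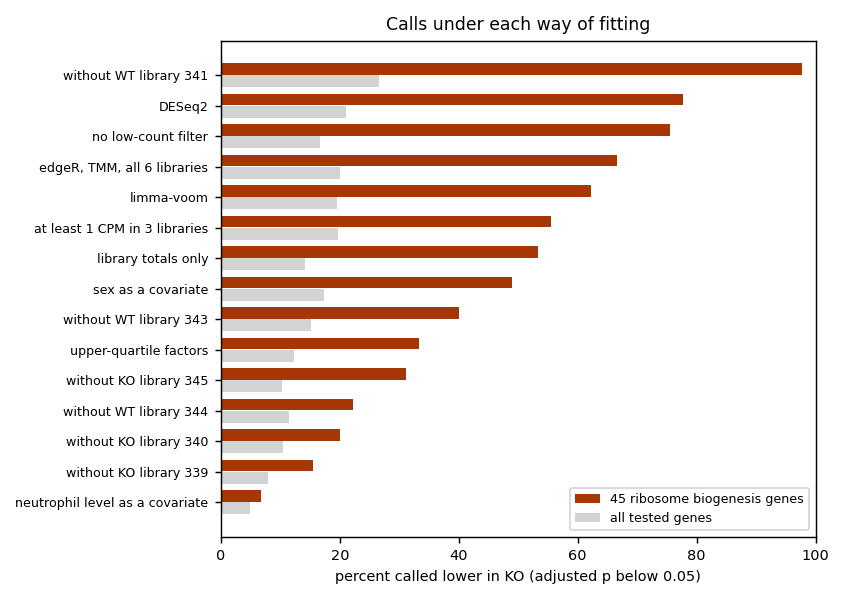
Percent of the 45 genes (red) and of all tested genes (grey) called lower (adjusted p below 0.05), for the fit of all 6 libraries and each of 14 alternatives. The red bar runs from 3 of 45 genes with the neutrophil level as a covariate (grey bar 4.83%) to 44 of 45 without WT_341 (grey bar 26.6%). The red bar is the longer of the pair in every row, by little with the neutrophil covariate.

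In the RNA polymerase I group 3 of 6 genes fell (19.9% of all tested genes and 34% of those of similar level). All 3 were subunits of the enzyme, and the other 3 did not pass. The group had a median log2 change of -0.38, against -0.16 for tested genes of similar level. The second largest subunit gene Polr1b (chromosome 2, 129100995 to 129126594, forward strand) was at 72.8, 112 and 93.8 CPM in WT_341, WT_343 and WT_344 and at 54.9, 55.8 and 61.2 CPM in KO_339, KO_340 and KO_345 (log2 change -0.70 ± 0.15 (SE), adjusted p = 0.0136). Polr1c, whose product is shared with RNA polymerase III, was at 43.5, 54.5 and 43.9 CPM in the WT and 32.1, 32.8 and 33.04 CPM in the KO libraries, in the same order (log2 change -0.54 ± 0.11 (SE), adjusted p = 0.0107). For both genes all KO libraries lay below the lowest WT mouse. Polr1a, the largest catalytic subunit, went from 140.2, 203 and 168 CPM to 124, 119 and 126 CPM (log2 change -0.47 ± 0.13 (SE), adjusted p = 0.028). Ubtf, the upstream binding factor that keeps ribosomal DNA open, held 176, 235 and 208 CPM in WT and 173, 174 and 178 CPM in KO libraries, where WT_341 lies among the KO values (log2 change -0.24 ± 0.11 (SE), adjusted p = 0.117). Rrn3, the initiation factor TIF-IA, had a log2 change of -0.29 and overlapping groups (adjusted p = 0.125). Polr1e, a subunit that works in initiation and elongation, read 20.3, 27.7 and 23.7 CPM in WT and 24.1, 22.5 and 25.1 CPM in KO libraries, the one gene of the 45 with a value close to 0 (log2 change -0.00083 ± 0.13, SE, adjusted p = 0.997). All adjusted p-values of the role groups come from edgeR, adjusted over 15742 genes, and values of libraries keep the order given for Polr1b. Of these calls, that of Polr1c held without any single library, and those of Polr1a and Polr1b were lost without KO_339.

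Of the 3 box C/D core genes 2 fell (19.9% of all tested genes and 34% of those of similar level). Their median log2 change was -0.49. Nop56 (chromosome 2, 130274430 to 130279313, forward strand) was at 191, 278 and 214 CPM in WT and 118, 118 and 125 CPM in KO libraries, a mean of 228 ± 45.3 against 120.4 ± 4.32 CPM (SD, n = 3 each; log2 change -0.92 ± 0.14 (SE), adjusted p = 0.00478). The highest KO library stood at 125 CPM and the lowest WT library at 191 CPM. Fbl, the methyltransferase fibrillarin, was at 69.2, 103 and 87.3 CPM and 60.5, 61.1 and 63.6 CPM and also fell (log2 change -0.49 ± 0.14 (SE), adjusted p = 0.0301). Nop58, the partner of Nop56 in the same particle, was at 162, 267 and 206 CPM in WT and 169, 169 and 170 CPM in KO libraries. WT_341 lay below all 3 KO libraries for Nop58, and the change did not pass (log2 change -0.32 ± 0.16 (SE), adjusted p = 0.155). The difference between the changes of Nop56 and Nop58 was not tested.

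All 4 core genes of box H/ACA snoRNPs fell (19.9% of all tested genes and 34% of those of similar level). Their median log2 change was -0.66. Dkc1, the pseudouridine synthase dyskerin, went from 134, 208 and 164 CPM in WT to 96.9, 100 and 102 CPM in KO libraries (chromosome X, 75095854 to 75109777, forward strand; log2 change -0.76 ± 0.15 (SE), adjusted p = 0.0101). Nhp2 had 60.97, 103 and 84.8 CPM against 51.2, 53.2 and 51.6 CPM (log2 change -0.67 ± 0.17 (SE), adjusted p = 0.0224), and Gar1 20.2, 30.7 and 26.1 CPM against 15.01, 14.3 and 19.6 CPM (log2 change -0.65 ± 0.18 (SE), adjusted p = 0.0299). For Gar1, KO_345 was close to WT_341, and the groups did not overlap. Nop10, the smallest protein of the particle, held 49.8, 74.3 and 61.3 CPM and 47.3, 46.1 and 41.2 CPM (log2 change -0.46 ± 0.15 (SE), adjusted p = 0.0427). The same 4 proteins also belong to telomerase in the cell, as background. The call of Dkc1 held without any single library, and the other 3 were lost without KO_339.

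Of the 6 genes for abundant nucleolar proteins 5 fell (19.9% of all tested genes and 34% of those of similar level). Their median log2 change was -0.59. Npm1, nucleophosmin (chromosome 11, 33152287 to 33163206, reverse strand), a histone and ribosome chaperone, had the highest level per length of the 45 genes, with a WT mean of 477 CPM per kb of exon against 104 CPM per kb for Ncl in second place and 6.14 CPM per kb for Polr1e in last. Npm1 was at 1025, 1632 and 1158 CPM in WT and 664, 664 and 729 CPM in KO libraries (log2 change -0.89 ± 0.17 (SE), adjusted p = 0.00982), and took 17.3, 18.3 and 16.1% of the counts of the 45 genes in WT and 14.3, 14.01 and 14.03% in KO libraries. Npm1 has processed copies, and how reads that match them were counted is not stated. Ncl, nucleolin, an RNA-binding protein of the polymerase I region, was at 966, 1179 and 1019 CPM and 638, 707 and 860.1 CPM (log2 change -0.52 ± 0.14 (SE), adjusted p = 0.024). KO_345 was the nearest KO library to the WT range for Ncl. Gnl3, the GTPase nucleostemin, had 108, 159 and 126 CPM and 84.9, 83.8 and 89.996 CPM (log2 change -0.60 ± 0.14 (SE), adjusted p = 0.0152), and Nolc1, the snoRNP chaperone Nopp140, 153, 263 and 200 CPM and 132, 131 and 135 CPM (log2 change -0.63 ± 0.18 (SE), adjusted p = 0.0292). Mybbp1a, a nucleolar repressor of transcription, also fell (log2 change -0.57), although KO_345 (297 CPM) lay just above WT_341 (294 CPM). The helicase gene Ddx21, with 251, 413 and 346 CPM and 228, 226 and 272 CPM, did not pass (log2 change -0.47 ± 0.18 (SE), adjusted p = 0.0707). Npm1 kept its call without any single library, and the other 4 calls were lost without KO_339.

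Small subunit factors fell in 8 of 14 cases (19.9% of all tested genes and 34% of those of similar level). Their median log2 change was -0.55. Utp14a (chromosome X, 48256862 to 48282453, forward strand), a cofactor of the helicase that takes apart the small subunit processome, showed the largest change of the group, from 52.6, 73.9 and 60.02 CPM in WT to 35.01, 33.7 and 38.2 CPM in KO libraries (log2 change -0.80 ± 0.13 (SE), adjusted p = 0.00606). Tsr1, an assembly factor of late small subunit precursors, was at 58.9, 84.6 and 72.4 CPM and 45.6, 47.2 and 52.3 CPM (log2 change -0.57 ± 0.14 (SE), adjusted p = 0.0176). Noc4l, which pairs with Nop14, had 43.6, 66.4 and 59.6 CPM and 34.7, 36.6 and 40.8 CPM (log2 change -0.60 ± 0.16 (SE), adjusted p = 0.0243). Wdr75, a processome subunit that binds the 5′ part of the precursor, had 61.6, 99.4 and 77.98 CPM and 52.3, 53.2 and 54.8 CPM (log2 change -0.58 ± 0.16 (SE), adjusted p = 0.0286). In all 4 of these genes the KO values were below the lowest WT mouse. The other falling genes were the processome subunits Heatr1 (log2 change -0.61) and Wdr43 (-0.59), the late assembly factor Pno1 (-0.70) and the export factor Rrp12 (-0.52), with adjusted p-values of 0.031 to 0.0398. The RNA acetyltransferase gene Nat10 (-0.51), Nop14, a processome subunit (-0.41), the endonuclease gene Nob1 (-0.42) and the scaffold gene Utp20 (-0.43) were below 0 but did not pass (adjusted p = 0.0533 to 0.109). Nor did Rrp9, a protein of the U3 particle, for which WT_341 (17.2 CPM) was the lowest of all 6 libraries (log2 change -0.30, adjusted p = 0.388). Bysl, bystin, was at 34.4, 49.7 and 45.3 CPM in WT and 36.7, 39.3 and 40.01 CPM in KO libraries, with KO values between those of the WT mice (log2 change -0.16 ± 0.14 (SE), adjusted p = 0.388). Without KO_339 only the call of Utp14a was left in this group.

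Large subunit factors fell in 8 of 12 cases (19.9% of all tested genes and 34% of those of similar level). Their median log2 change was -0.54. Ftsj3, a methyltransferase of ribosomal RNA precursors (chromosome 11, 106249142 to 106256079, reverse strand), had the largest change and the smallest adjusted p of the 45 genes. It was at 151, 229 and 179 CPM in WT and 88.7, 87.8 and 93.2 CPM in KO libraries, a mean of 186 ± 39.6 against 89.9 ± 2.88 CPM (SD, n = 3 each; log2 change -1.05 ± 0.14 (SE), adjusted p = 0.00399). Its KO libraries lay together well below the lowest WT mouse at 151 CPM. Rrp1b, a nucleolar protein of large subunit processing (chromosome 17, 32036100 to 32062865, forward strand), was at 81.9, 121 and 105 CPM and 57.9, 59.6 and 60.002 CPM (log2 change -0.79 ± 0.13 (SE), adjusted p = 0.00673). Ebna1bp2, an early large subunit factor, had 95.6, 146 and 107 CPM and 79.6, 78.6 and 75.98 CPM (log2 change -0.58 ± 0.15 (SE), adjusted p = 0.0233). The 3 proteins of the PeBoW complex, which processes the large subunit precursor, are made from Pes1, Bop1 and Wdr12. Bop1 held 71.6, 128 and 114 CPM and 60.2, 62.4 and 64.9 CPM (log2 change -0.74 ± 0.19 (SE), adjusted p = 0.0242), Pes1 also fell (-0.53, adjusted p = 0.0279), and Wdr12 did not pass (-0.36, adjusted p = 0.0593), although its groups did not overlap. The RNA cytosine methyltransferase gene Nop2 (-0.55), Noc2l (-0.47) and Nop16 (-0.59) fell with adjusted p-values of 0.03 to 0.0401. Noc3l (-0.38) and Rrs1 (-0.37) overlapped between the groups and did not pass (adjusted p = 0.144 and 0.145). Brix1 was at 52.8, 63.4 and 58.03 CPM and 47.4, 47.4 and 55.98 CPM, with KO_345 among the WT values (log2 change -0.21 ± 0.10 (SE), adjusted p = 0.148). Ftsj3 and Rrp1b kept their calls without any single library, and the other 6 were lost without KO_339.

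**Figure D4:**
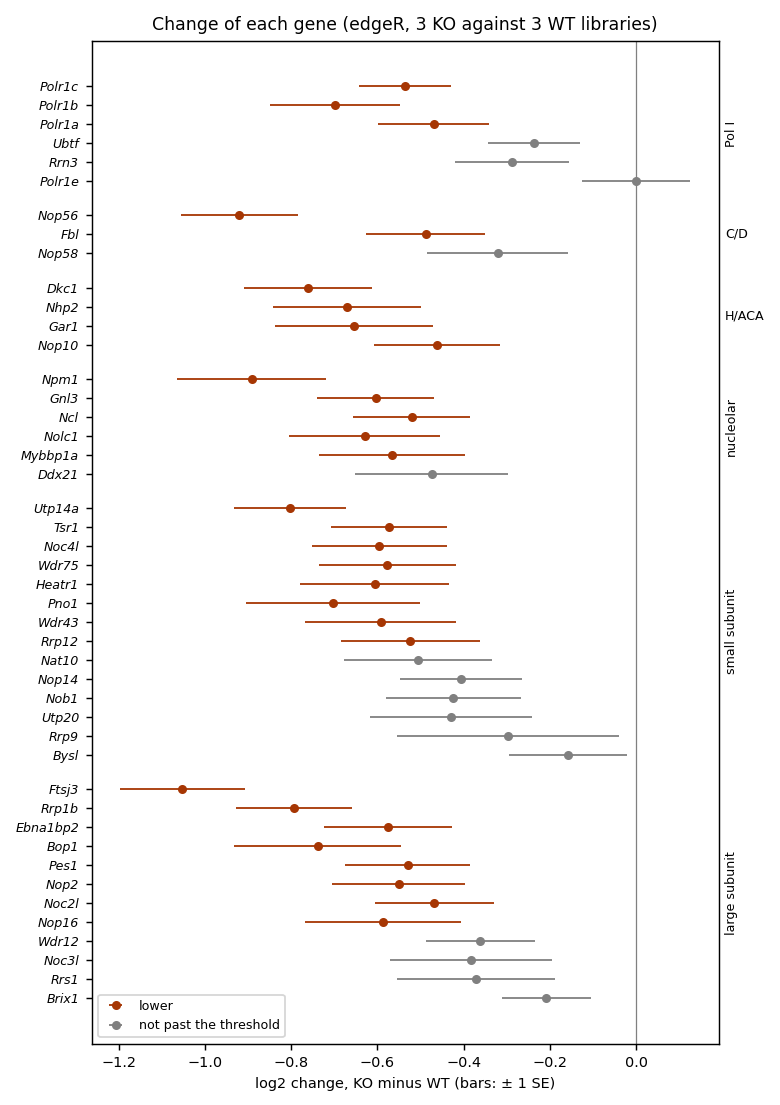
Log2 change of each of the 45 genes, KO minus WT, with bars of 1 SE from the fit, grouped by role; red marks genes past an adjusted p of 0.05 and grey those that did not pass. All 45 values lie below 0 in this fit, from -1.05 for Ftsj3 to a value next to 0 for Polr1e. Polr1e is above 0 in 9 of the 14 alternatives, and 16 of the 45 genes are above 0 with the neutrophil covariate.

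Of 119 further genes of the pathway, 118 were tested (Rpp25 was not), and 53 fell (44.9%) and 0 rose (19.9% and 16% of all tested genes). Their median log2 change was -0.37, and 112 values were below 0 (94.9%, against 49% of all tested genes). Tested genes within the level range of the 45 genes had 34% lower, 8.98% higher, 69.2% below 0 and a median of -0.16. Some of the further genes, such as Rpp38, lie below that range. At an unadjusted p of 0.05 the counts were 73 lower and 0 higher (25.5% and 22.7% of all tested genes). DESeq2 called 63 lower (21%), limma-voom called 46 lower (19.5%), and both called 0 higher. Further subunits of RNA polymerase I, its selectivity factor and its termination factor fell in 2 of 14 cases (14.3%), a smaller share than that of all tested genes. These 2 were the shared subunit gene Polr2h (log2 change -0.53 ± 0.14 (SE), edgeR adjusted p = 0.0241) and Polr1d, shared with RNA polymerase III (log2 change -0.43 ± 0.13 (SE), edgeR adjusted p = 0.0365). Of 17 tested genes of snoRNP assembly and the RNA-cutting enzyme RNase MRP, 8 fell; the smallest adjusted p-values were those of Shq1, a chaperone of dyskerin (log2 change -0.72 ± 0.12 (SE), adjusted p = 0.0066), and Pop1, a subunit of RNase MRP (log2 change -0.82 ± 0.16 (SE), adjusted p = 0.00987). Further small subunit factors fell in 22 of 41 cases, with the smallest adjusted p for Tsr2 (-0.74), a chaperone of a small subunit protein, and Wdr46 (-0.70), a processome subunit. Further large subunit factors fell in 21 of 46, with the smallest adjusted p for the helicase gene Ddx51 (-0.72) and Nvl (-0.56), an ATPase that acts on large subunit precursors. Ddx51 was at 45.3, 56.2 and 52.01 CPM in WT and 29.2, 30.6 and 33.6 CPM in KO libraries. With upper-quartile factors 34 of the 118 fell (12.3% of all tested genes) and Krr1 and Ddx55 rose (22%). With library totals only 36 fell (14.1%) and Krr1 rose (20%), as it also did without KO_345 (8.27%). Leaving out single libraries gave 99 lower without WT_341 (26.6% of all tested genes), 37 without WT_343 (15.1%), 24 without WT_344 (11.5%), 11 without KO_339 (7.95%), 22 without KO_340 (10.4%) and 22 without KO_345 (10.3%). The neutrophil covariate left 4 lower (4.83%), namely Ddx51, Nvl, Las1l and Nol9.

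Because most of the 45 genes moved in the same direction, the 250 bases before their RefSeq start sites (GRCm38.p6) were searched for the E-box CACGTG, the motif known for MYC and MAX, which reads the same on both strands, and for TATAAA on either strand. The promoter table used here, made from RefSeq, matched 40 of the 45 genes, and Npm1, Fbl, Bop1, Rrs1 and Rrp12 were not searched. CACGTG stood in this stretch for 2 of the 40 (5%), against 6.86% of all 27025 genes and 7.61% of 17492 protein-coding genes. TATAAA stood there for 2 of 40 (5%, Dkc1 and Pes1), against 14.3% and 13.7%. Bases after the start or further before it were not searched, so a missing match holds for this stretch only. The median GC content was 57.6% over 49 windows of the 40 genes and 52.4% over all 32851 windows. The genes with CACGTG were Nop2, which fell, and Rrn3, which did not pass and holds 2 copies. The stretches of Nop2, of Ftsj3 and of Nop56 are shown, the first for its motif (in capitals, starting 60 bases before the start) and the other two, picked after their values were seen, as the genes with the smallest adjusted p. Ftsj3 and Nop56 hold neither motif.
Nop2 (chr6:125131633-125131882, forward strand): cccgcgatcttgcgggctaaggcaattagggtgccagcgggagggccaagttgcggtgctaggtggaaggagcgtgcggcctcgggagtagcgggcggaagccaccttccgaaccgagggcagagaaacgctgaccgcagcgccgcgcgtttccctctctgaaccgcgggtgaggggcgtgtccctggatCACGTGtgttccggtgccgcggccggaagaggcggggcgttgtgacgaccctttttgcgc
Ftsj3 (chr11:106256085-106256334, reverse strand): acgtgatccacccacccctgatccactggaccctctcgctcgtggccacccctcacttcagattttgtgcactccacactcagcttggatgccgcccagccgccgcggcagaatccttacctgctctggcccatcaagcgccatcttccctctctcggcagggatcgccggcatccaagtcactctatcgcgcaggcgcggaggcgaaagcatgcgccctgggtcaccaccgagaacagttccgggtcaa
Nop56 (chr2:130274162-130274411, forward strand): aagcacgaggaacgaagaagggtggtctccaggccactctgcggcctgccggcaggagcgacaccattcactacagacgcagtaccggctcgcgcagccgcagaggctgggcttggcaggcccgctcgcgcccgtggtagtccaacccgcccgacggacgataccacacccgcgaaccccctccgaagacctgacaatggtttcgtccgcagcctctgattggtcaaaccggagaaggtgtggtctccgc
A match describes letters only and says nothing of binding in these cells. The 45 genes lie on 18 chromosomes, and 20 of them have exons that overlap a gene on the other strand, among them Nop56 with Idh3b, Dkc1 with Mpp1 and Rrp1b with Hsf2bp. The strand setting of the counting is not stated, so for these genes reads of the partner may be included.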

How the data were processed

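Libraries were made per the labels' protocols from TRIzol RNA of single mice with a strand-specific messenger RNA kit and read as pairs of 75 bp. The deposited table gives raw counts per gene symbol, not normalized. Tools named in the submitters' processing notes are STAR, HTSeq, Trimmomatic and FastQC, with build mm10. Annotation release, strand setting and handling of multiply mapping reads were not given in the sources used. No columns belonged to other samples.

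Groups came from sample titles, as 3 WT and 3 KO libraries. Genes were tested with edgeR 4.0.16 (R 4.3.3): filterByExpr (minimum count 10, minimum total 15), TMM factors, robust glmQLFit and glmQLFTest, Benjamini-Hochberg adjustment over 15742 genes, threshold 0.05. The test was also run on counts simulated gene by gene, with 200 changed genes. These counts hold no shift shared by many genes within a genotype, and the outcome is not given here. Alternatives were DESeq2 1.42.0, limma-voom (3.58.1), 2 other scalings, 2 other filters, 2 covariates and each library left out. Positions and exon lengths are from GENCODE M21 (GRCm38), 1-based.

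The genes, their role groups, the further pathway list and the marker lists were chosen with earlier results of these data known. In each role group the 4 genes with the smallest adjusted p and the one with the largest are given in every library, and of the further genes up to 2 per group and direction. Las1l, Nol9, Krr1, Ddx55, the named marker genes, the snoRNAs and the promoters of Ftsj3 and Nop56 were chosen after their values were seen, as were the marker sums without the most abundant markers.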

Additional observations from a re-analysis of the deposited data

How the results depend on the processing

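Of 630 values (45 genes under 14 alternatives), 428 kept their direction and their side of the threshold, 154 kept their direction and lost the call, 24 kept their direction and gained one, and 24 changed sign, 0 of them past the threshold. With the neutrophil level as a covariate 16 genes were above 0: Rrp12 (0.0035) and Nop16 (0.0043), which had been called, and Wdr12 (0.0036), Brix1 (0.0066), Nob1 (0.011), Nat10 (0.032), Ubtf (0.070), Ddx21 (0.088), Rrn3 (0.11), Rrs1 (0.20), Utp20 (0.21), Nop58 (0.21), Noc3l (0.22), Bysl (0.25), Polr1e (0.32) and Rrp9 (0.56), which had not. The other 8 sign changes were all Polr1e. It was at 0.14 with upper-quartile factors, 0.10 with library totals only, 0.0014 with limma-voom, 0.075 with the stricter filter and 0.080 with sex as a covariate. Polr1e was also above 0 without KO_339, without KO_340 and without WT_343. Over all fits without a single library its values ran from -0.12 to 0.11. The neutrophil covariate left 1216 calls over all genes, 3 of the 45 genes lower (median log2 change -0.046) and 4 further pathway genes lower. Upper-quartile factors left 15 of the 45 and 34 further genes lower and 2 further genes higher, and library totals only left 1 further gene higher. Leaving out single libraries gave 2302 to 7879 calls over all genes, 7 to 44 of the 45 genes lower with medians of -0.71 to -0.38, 11 to 99 further genes lower and 0 to 1 higher. None of the 45 genes was called higher in any of the 14 alternatives. Fits without a library have 2 mice in 1 group. The cause was not tested. No paired analysis was possible because the mouse numbers of the genotypes are all different.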
